A study of Homo sapiens with 21 samples.

Results

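The claudin genes read here were CLDN1, CLDN2, CLDN3, CLDN4, CLDN6, CLDN7, CLDN10, CLDN11, CLDN15 and CLDN16, taken as every array probe annotated to them. They made up 10 of the 20046 genes and 13 of the 47323 probes on the array, with 3 probes for CLDN10, 2 for CLDN16 and 1 for each of the other genes. Expression had been measured in cultured human cells on single-colour Illumina BeadChips, 1 array per sample, to ask how defects of DNA mismatch repair alter the transcriptome. The 21 arrays formed 7 groups of 3. HCT116, a colorectal carcinoma line, and MCF10A, a non-tumorigenic breast epithelial line, were each present as control samples labelled CTRL. KLE, an endometrial carcinoma line, carried hairpin RNA 059 or 062 against MSH3 (shMSH3), hairpin 543 or 603 against MSH6 (shMSH6), or a control hairpin (shCTRL). Every KLE group thus carried a hairpin, which the labels of the other lines do not mention. The vector, and whether a group was a clone or a pool of cells, are not given in the sources used here. Arrays of each KLE group bear the letters A, B and C, and those of the other lines are numbered. Values of a group are given in that order.

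Claudins are membrane proteins that cross the membrane several times and join those of the next cell into the strands of the tight junction, the seal that closes the space between epithelial cells. Some of them tighten this seal, as CLDN1, CLDN3, CLDN4 and CLDN7 are known to do in many epithelia. Others form pores for chosen ions or water, among them CLDN2 and CLDN15 in the gut and CLDN10 and CLDN16 in the kidney. CLDN11 builds the junctions of myelin and of Sertoli cells, and CLDN6 belongs mainly to embryonic epithelia. Which claudins an epithelium makes sets how leaky it is.

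The sequences before the transcription starts of the claudins with the largest differences between the lines are shown first. CLDN1 and CLDN16 are neighbours on chromosome 3, with the CLDN1 start between both CLDN16 starts, and yet differed in MCF10A. Against KLE shCTRL, CLDN7 ran opposite to CLDN16 in HCT116 and MCF10A, and opposite to CLDN1 in HCT116 alone. The sequences are RefSeq windows of build GRCh38.p14, 250 bases long, read in the direction of the gene and ending at the base before the start. Capitals mark the E-box CACCTG or its reverse complement CAGGTG, a motif that repressors of the SNAI and ZEB families are known to bind. The CLDN7 window shown is that of its second start, chr17:7262479-7262728 on the minus strand, and that of its first start is not shown. The CLDN1 window is chr3:190322447-190322696 and the CLDN3 window chr7:73770271-73770520, both on the minus strand. The CLDN16 windows are chr3:190290111-190290360 and chr3:190387913-190388162 on the plus strand.
CLDN7: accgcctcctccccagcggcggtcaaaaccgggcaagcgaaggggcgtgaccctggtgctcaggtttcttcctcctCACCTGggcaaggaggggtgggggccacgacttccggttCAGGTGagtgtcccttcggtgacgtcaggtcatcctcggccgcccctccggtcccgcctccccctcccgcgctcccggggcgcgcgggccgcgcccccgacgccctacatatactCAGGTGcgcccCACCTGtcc
CLDN1: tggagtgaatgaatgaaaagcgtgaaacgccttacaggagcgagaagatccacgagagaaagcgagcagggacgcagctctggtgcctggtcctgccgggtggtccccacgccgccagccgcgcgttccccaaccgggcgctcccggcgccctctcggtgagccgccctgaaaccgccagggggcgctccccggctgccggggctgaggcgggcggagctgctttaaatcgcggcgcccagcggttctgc
CLDN3: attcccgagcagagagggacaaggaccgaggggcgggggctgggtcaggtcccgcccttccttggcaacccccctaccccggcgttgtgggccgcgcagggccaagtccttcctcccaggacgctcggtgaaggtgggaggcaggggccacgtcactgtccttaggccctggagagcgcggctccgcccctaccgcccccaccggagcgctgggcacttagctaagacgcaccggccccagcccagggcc
CLDN16 first start: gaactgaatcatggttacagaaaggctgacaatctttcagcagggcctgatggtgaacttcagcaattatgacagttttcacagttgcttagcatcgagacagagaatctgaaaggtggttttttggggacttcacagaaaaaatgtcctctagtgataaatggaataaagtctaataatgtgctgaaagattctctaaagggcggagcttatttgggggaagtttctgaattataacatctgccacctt
CLDN16 second start: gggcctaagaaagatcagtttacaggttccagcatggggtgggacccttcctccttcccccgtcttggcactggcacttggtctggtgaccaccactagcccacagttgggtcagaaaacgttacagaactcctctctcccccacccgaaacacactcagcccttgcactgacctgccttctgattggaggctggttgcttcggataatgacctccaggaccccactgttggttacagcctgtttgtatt

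All 10 claudin genes matched the RefSeq table, with 15 starts among them. Both strands were searched, and since the 2 spellings are each other's reverse complement every site counted once. Of the 15 windows 1 held the E-box, that of the second CLDN7 start, with 4 sites 174, 135, 20 and 9 bases before the start. Among 35114 windows of the same length, 17.5% held at least 1 such site, 2.53% at least 2 and 0.122% at least 4. The other CLDN7 start had none. No claudin window held TATAAA or its reverse complement, which 10.7% of all windows held. The CLDN1 window held 28 CpG dinucleotides and the CLDN3 window 19, against a median of 11 over all windows. The CLDN7 windows held 9 at the first start and 25 at the second, and the CLDN16 windows 2 and 4. The CLDN1 start lies between both CLDN16 starts, on the opposite strand. These letters describe the windows, and which start was used in these cells was not tested.

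Levels are given as log2 of the intensity plus 16 after quantile normalization, on which scale the median probe of an array stood at 6.92. No background had been subtracted from the intensities, so differences that involve a probe near this median are understated. Array medians lay between 87.71 and 122.2 intensity units. The MSH6 hairpins 543 and 603 left 23% and 52.5% of the MSH6 signal of shCTRL (adjusted p = 6.1e-05 and 0.021). Of both MSH3 probes the dim one fell to 57.9% with hairpin 059 (adjusted p = 0.026) and stood at 63.7% with 062 (adjusted p = 0.076, or 0.032 when blocked by letter), while the bright one stood at 97.5% and 87.5%. HCT116 had the colon factor CDX2 at 8.70 but KRT20, CDX1, VIL1 and LGALS4 at 7.05, 6.845, 6.80 and 6.75. MCF10A had the basal keratins KRT5 and KRT14 at 11.39 and 10.72. The basal marker ITGB4 stood at 9.46 in MCF10A and at 9.22 in KLE shCTRL. KLE shCTRL had the Mullerian factors EMX2, WT1 and PAX8 at 11.47, 9.23 and 8.91. Its hormone receptors ESR1 and PGR stood at 6.89 and 6.76, below the array median. Of 4 fibroblast markers DCN and FAP stood at 10.84 and 8.72 in MCF10A and PDGFRB and THY1 both at 6.78. The log2 of the 4 summed was 8.77 to 8.78 in HCT116, 11.24 to 11.32 in MCF10A and 8.86 to 9.54 in KLE, and its part in the claudin differences was not tested. No statement in the labels says that replicates were separate cultures, so p-values measure the spread between these samples, and 3 arrays per group limit the precision.

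The lines made different claudins. By each gene's brightest probe, 3 of the 10 genes stood above the array median on all 3 arrays of HCT116 (CLDN3, CLDN7 and CLDN15), 4 on all 3 arrays of MCF10A (CLDN1, CLDN7, CLDN15 and CLDN16) and 6 on all 15 arrays of KLE (CLDN1, CLDN3, CLDN10, CLDN11, CLDN15 and CLDN16). The MCF10A level of CLDN16, 7.0 ± 0.048 (SD, n = 3), was close to that median. The rule was stricter for KLE, with 15 arrays in place of 3. CLDN7 missed it there, above the median on 14 of 15 KLE arrays and on all 3 of shCTRL (7.10 ± 0.091). CLDN6, the embryonic claudin, was not above the median on any of the 21 arrays, with levels between 6.71 and 6.85. The pore former CLDN2 was above it on 2 KLE arrays, with levels between 6.72 and 6.94 over all 21. CLDN10 probe ILMN_1737096 was above it on none, with levels between 6.74 and 6.89. These 3 probes did not pass the filter, above the array median on at least 3 arrays of a fit, and CLDN10 probe ILMN_1685194, at 6.80 in HCT116, 6.81 in MCF10A and 6.97 in KLE shCTRL, was tested in the KLE arrays alone.

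**Figure D1:**
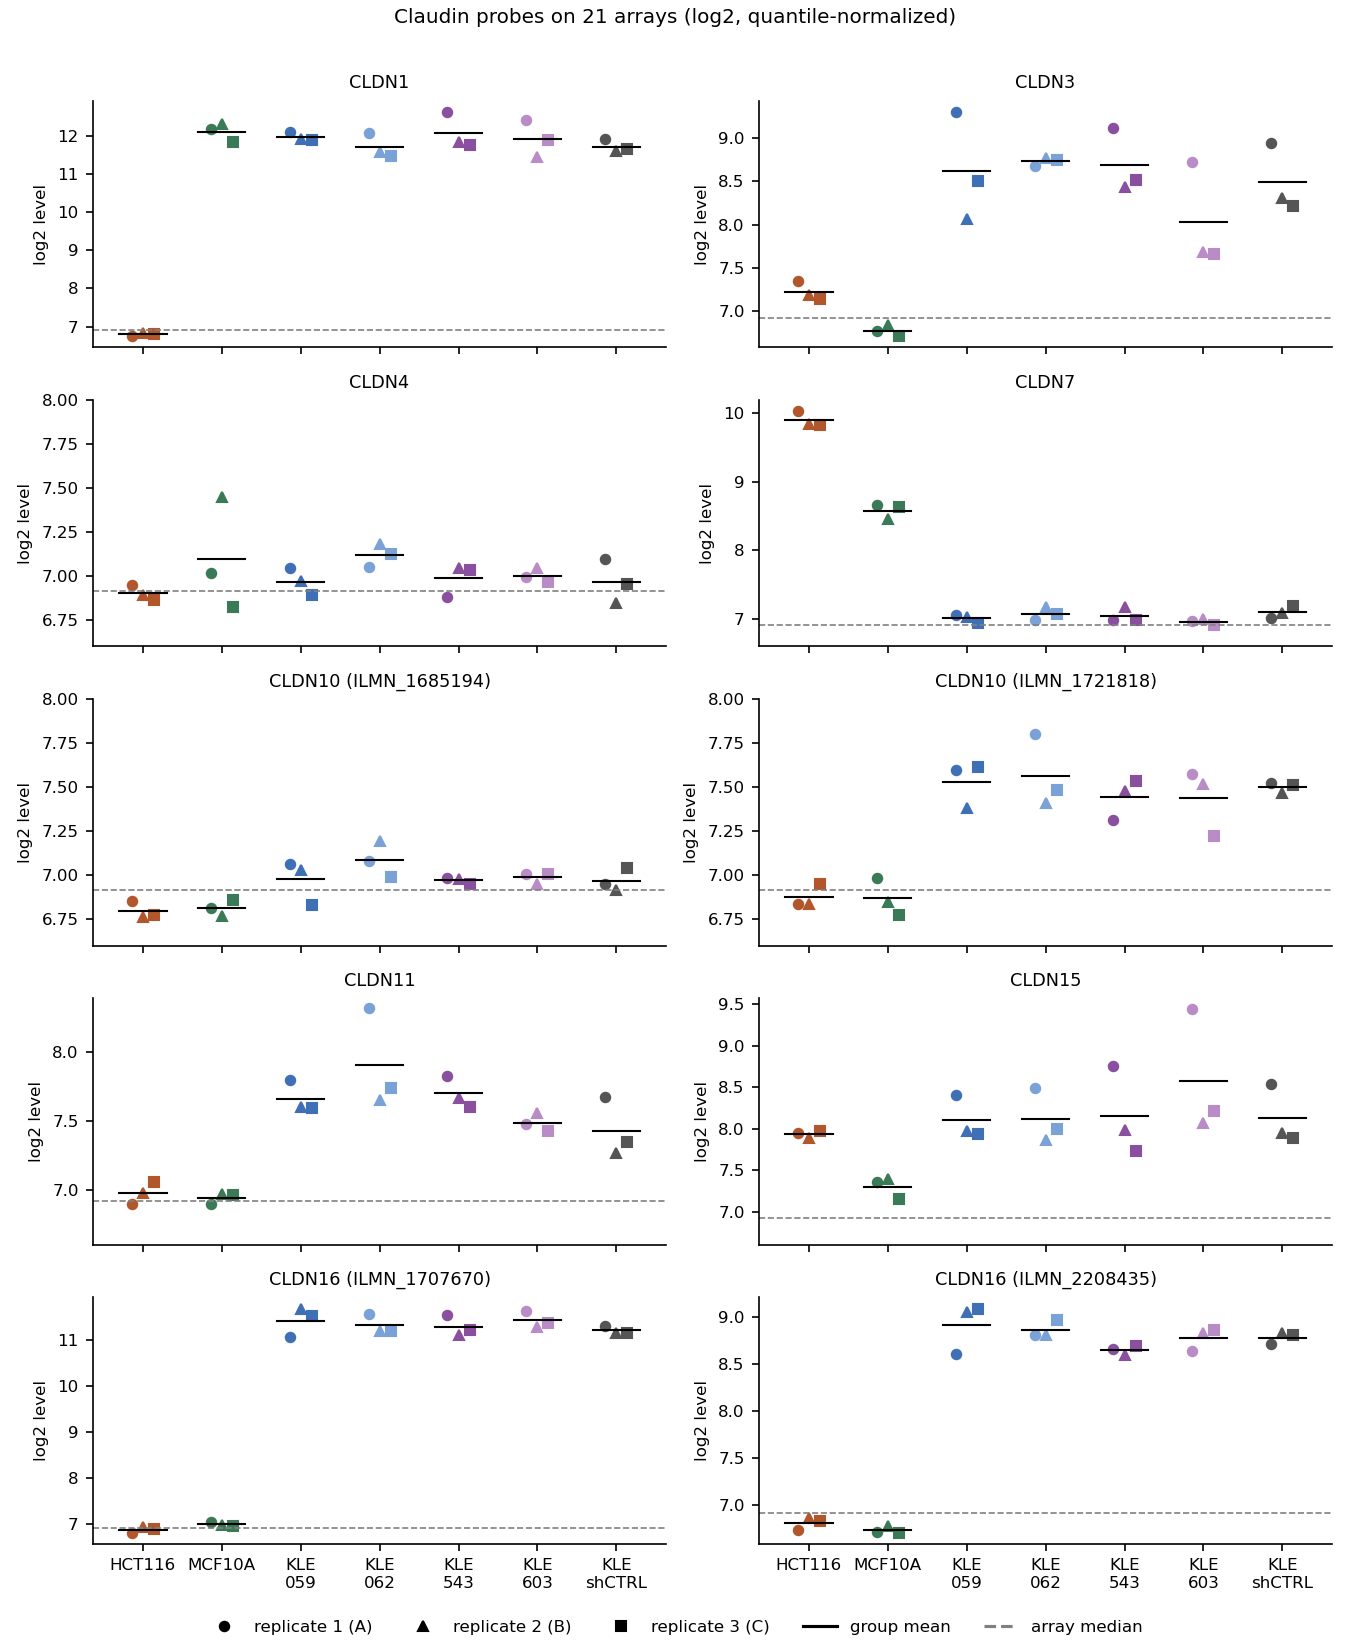
Log2 level (vertical axis, one scale per panel) of the 10 claudin probes that were tested, on each of the 21 arrays. Points are arrays, with the replicate shown by the symbol, short lines are group means and the dashed line is the array median of 6.92. CLDN1 of HCT116 lies at that line, CLDN7 is high in HCT116 and MCF10A, and both CLDN16 probes are high in KLE.

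HCT116 was compared with KLE shCTRL to see which claudins set a colorectal carcinoma line apart from an endometrial one. Of the 9 claudin probes tested, 1 was higher in HCT116 and 6 were lower (limma, adjusted p below 0.05), and 4 of the 13 could not be tested. Over all 27745 probes tested 44.4% were called in this comparison, 23.6% higher and 20.8% lower. CLDN7 was the claudin that was higher in HCT116, while CLDN1, CLDN3, CLDN10, CLDN11 and both probes of CLDN16 were lower. The median log2 difference of the claudin probes was -0.63, against 0.023 over all probes. It counts both CLDN16 probes, and these claudins were chosen with earlier results of these data known. By each gene's brightest probe the claudin median was -0.54. For the 7 tested of 11 further claudin genes on the array it was 0.037. In RNA of whole cultures a lower level in each cell and fewer cells that express a gene cannot be told apart.

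CLDN7, which binds the adhesion molecule EPCAM in epithelial cells, had log2 levels of 10.03, 9.85 and 9.82 in HCT116, against 7.01, 7.09 and 7.20 in KLE shCTRL. Every HCT116 array lay well above every KLE array. The difference was 2.80 (SE 0.082, 95% interval 2.61 to 2.99), or 6.97-fold, with an adjusted p of 9.4e-09. EPCAM was higher in HCT116 than in KLE shCTRL by 0.92 (SE 0.10, adjusted p = 6.9e-05) but lower in MCF10A (-1.47, SE 0.10, adjusted p = 3e-06), where CLDN7 was higher.

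CLDN1, which is needed for the water barrier of mouse skin, had log2 levels of 6.75, 6.83 and 6.82 in HCT116, against 11.90, 11.59 and 11.65 in KLE shCTRL. No HCT116 array exceeded the array median, and KLE cells had the gene among their bright probes. The difference of -4.91 (SE 0.12, 95% interval -5.19 to -4.64) put HCT116 at 3.32% of the KLE level (adjusted p = 3.4e-09).

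CLDN16, the claudin of magnesium and calcium uptake in the kidney's thick ascending limb, had log2 levels on probe ILMN_1707670 of 6.82, 6.94 and 6.89 in HCT116, against 11.32, 11.16 and 11.17 in KLE shCTRL. Its probe ILMN_2208435 gave 6.73, 6.86 and 6.83 in HCT116, against 8.71, 8.83 and 8.81 in KLE shCTRL. Both probes lay at or below the array median in HCT116, except 1 array of the first, and far above it in KLE. The differences were -4.33 (SE 0.063, adjusted p = 1.8e-10) and -1.98 (SE 0.058, adjusted p = 9.5e-09), or 4.96% and 25.4% of the KLE level. Probe ILMN_2208435 was kept for testing through its KLE arrays alone and so had to differ.

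CLDN3, a receptor for a Clostridium enterotoxin as CLDN4 is, had log2 levels of 7.34, 7.18 and 7.13 in HCT116, against 8.95, 8.31 and 8.22 in KLE shCTRL. The groups did not overlap, and KLE array A stood above B and C. HCT116 had 41.4% of the KLE level (difference -1.27, SE 0.17, adjusted p = 0.00017). CLDN4, whose gene is next to CLDN3 on chromosome 7, was not called. Its levels were 6.95, 6.89 and 6.86 in HCT116 and 7.10, 6.85 and 6.96 in KLE shCTRL, which overlap near the array median (difference -0.07, 95% interval -0.38 to 0.25, adjusted p = 0.75). The difference between CLDN3 and CLDN4 was not itself tested.

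The other pore formers and CLDN11 differed less. CLDN10 probe ILMN_1721818 had levels of 6.84, 6.84 and 6.95 in HCT116, against 7.52, 7.47 and 7.51 in KLE shCTRL (difference -0.63, SE 0.066, adjusted p = 4.1e-05). This probe was above the array median on 1 of 3 arrays of HCT116 and of MCF10A and on 3 of 3 of KLE shCTRL. Without KLE it would not have passed the filter, and so it had to be lower in both. CLDN11 had 6.90, 6.98 and 7.06 in HCT116, against 7.67, 7.26 and 7.35 in KLE shCTRL (difference -0.45, SE 0.099, adjusted p = 0.0045). Neither gene's groups overlapped, and both stood near the array median in HCT116. On values without normalization between arrays the CLDN11 difference was not called (-0.49, adjusted p = 0.12). CLDN15, the sodium pore of the intestine, had 7.95, 7.89 and 7.98 in HCT116, against 8.54, 7.95 and 7.89 in KLE shCTRL. Its groups overlapped, with a difference of -0.19 (95% interval -0.53 to 0.15, adjusted p = 0.37).

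MCF10A was compared with KLE shCTRL in the same way, against the same 3 KLE arrays. Of the 9 claudin probes tested, 2 were higher in MCF10A and 6 lower, where 43.2% of all probes were called, 21.7% higher and 21.5% lower. CLDN7 and CLDN1 were the higher ones, and CLDN3, CLDN10, CLDN11, CLDN15 and both CLDN16 probes the lower ones. The median claudin difference was -0.63, against 0.015 over all probes, with the limits given for HCT116. By each gene's brightest probe it was -0.56, and 0.016 for the 7 tested further claudin genes.

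CLDN1 had log2 levels of 12.17, 12.30 and 11.82 in MCF10A, against 11.90, 11.59 and 11.65 in KLE shCTRL. The lowest MCF10A array lay below the highest KLE array, so the groups overlapped. The difference of 0.39 (SE 0.12, 95% interval 0.11 to 0.66, adjusted p = 0.029) passed narrowly. It was not called in 8 of 17 other settings, with adjusted p of 0.10 and 0.088 without KLE shCTRL array B or C, 0.094 and 0.11 without MCF10A replicate 1 or 2, 0.18 with median scaling, 0.28 without normalization, 0.059 in a fit of both groups alone and 0.24 in a fit of all 21 arrays. Its range over these settings was 0.29 to 0.52.

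CLDN7 had log2 levels of 8.66, 8.45 and 8.62 in MCF10A, against 7.01, 7.09 and 7.20 in KLE shCTRL. The groups stood apart, with MCF10A 2.79-fold higher (difference 1.48, SE 0.082, adjusted p = 5.5e-07). On CLDN16 probe ILMN_1707670 MCF10A had 7.05, 6.99 and 6.96, against the KLE levels above 11, a difference of -4.22 (SE 0.063, adjusted p = 1.3e-10). Probe ILMN_2208435 had 6.71, 6.77 and 6.71 in MCF10A and differed by -2.05 (SE 0.058, adjusted p = 5.8e-09). This probe was kept for testing through its KLE arrays alone and so had to be lower here too. CLDN16 was thus near the array median in HCT116 and MCF10A alike, and its neighbour CLDN1 in HCT116 alone of the 3 lines.

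CLDN3 stood at 6.76, 6.84 and 6.71 in MCF10A, below the array median on all 3 arrays. This was 30.3% of the KLE shCTRL level (difference -1.72, SE 0.17, adjusted p = 2.3e-05). CLDN15 had 7.36, 7.39 and 7.15 in MCF10A, against 8.54, 7.95 and 7.89 in KLE shCTRL, and the groups did not overlap (difference -0.83, SE 0.15, adjusted p = 0.0017). The CLDN15 call was lost on values without normalization (adjusted p = 0.057) and in a fit of all 21 arrays (adjusted p = 0.055). CLDN10 probe ILMN_1721818 and CLDN11 differed by -0.63 and -0.49 (SE 0.066 and 0.099, adjusted p = 3.9e-05 and 0.0031), the second not called without normalization (-0.54, adjusted p = 0.097). The CLDN10 probe passed the filter through KLE alone and so had to be lower here too. CLDN4 had 7.02, 7.45 and 6.83 in MCF10A, with the widest spread of its 7 groups, and differed from KLE shCTRL by 0.13 (95% interval -0.18 to 0.44, adjusted p = 0.50).

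**Figure D2:**
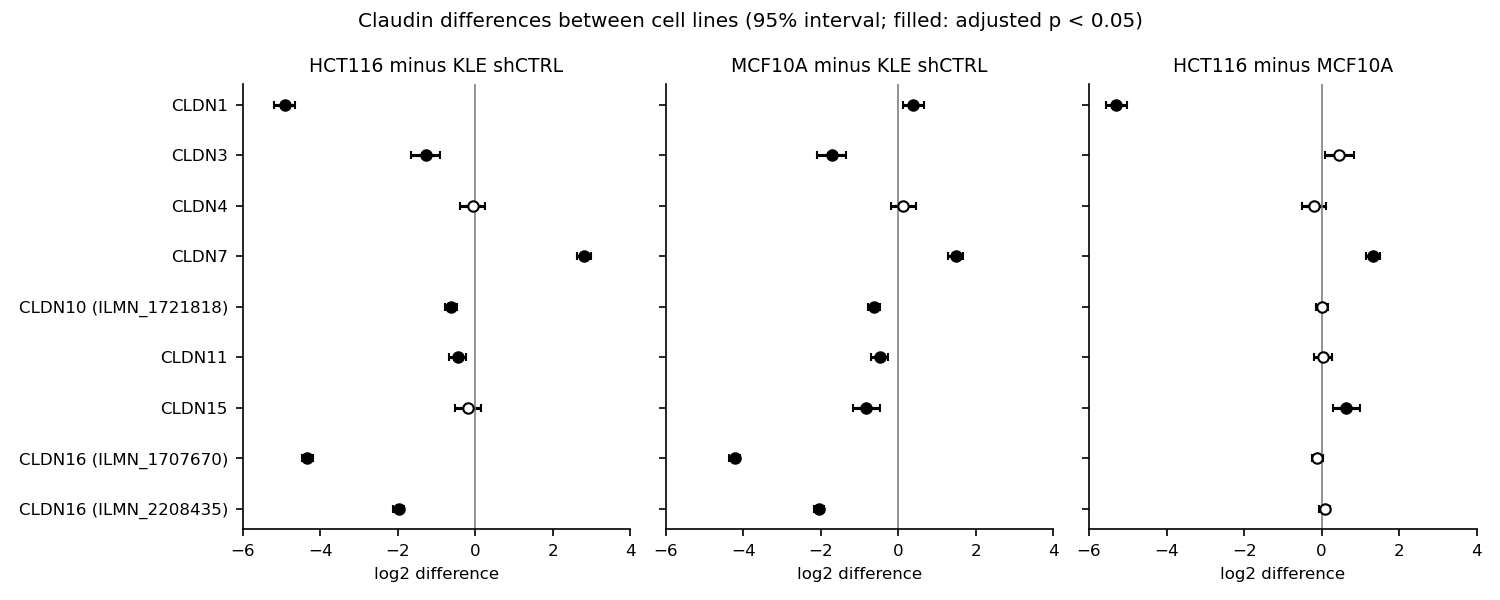
Log2 difference (horizontal axis) of the 9 tested claudin probes in HCT116 minus KLE shCTRL, MCF10A minus KLE shCTRL and HCT116 minus MCF10A, with 95% intervals from limma (3 arrays per group). Filled points passed an adjusted p of 0.05. CLDN1 lies at -4.91, 0.39 and -5.30 across the panels, and CLDN7 at 2.80, 1.48 and 1.32.

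Between HCT116 and MCF10A, 2 claudin probes were higher in HCT116 and 1 was lower among the 9 tested, where 32.6% of all probes were called, 17.7% higher and 14.9% lower. The lower one was CLDN1, at 6.75, 6.83 and 6.82 in HCT116 against 12.17, 12.30 and 11.82 in MCF10A. HCT116 thus had 2.54% of the MCF10A level (difference -5.30, SE 0.12, adjusted p = 2.3e-09). CLDN7 was higher in HCT116 by 1.32 (SE 0.082, adjusted p = 1.8e-06), or 2.5-fold, with no overlap of the arrays. CLDN15, at 7.95, 7.89 and 7.98 in HCT116 against 7.36, 7.39 and 7.15 in MCF10A, was higher by 0.64 (SE 0.15, adjusted p = 0.0094). That call was lost with median scaling (adjusted p = 0.082), without normalization (0.14) and in a fit of all 21 arrays (0.18). CLDN3 stood at 7.34, 7.18 and 7.13 in HCT116 against 6.76, 6.84 and 6.71 in MCF10A. Its arrays did not overlap, yet the difference of 0.45 (95% interval 0.08 to 0.82) missed the threshold with an adjusted p of 0.066. The remaining 5 probes, of CLDN4, CLDN10, CLDN11 and CLDN16, differed by -0.20 to 0.07.

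Over the 7 groups the order of mean levels mostly followed the line. CLDN7 ran from HCT116 (9.90 ± 0.11, SD, n = 3 for each group here) over MCF10A (8.58 ± 0.11) to the KLE groups, which lay between 6.96 and 7.10, and the HCT116, MCF10A and KLE arrays did not overlap. CLDN1 had MCF10A highest (12.10 ± 0.25), followed by KLE shMSH6 543, shMSH3 059, shMSH6 603, shCTRL and shMSH3 062, whose neighbours all overlapped, and HCT116 (6.80 ± 0.045) far below. CLDN3 had its 5 KLE groups on top, between 8.03 and 8.74 with overlapping neighbours, then HCT116 (7.22 ± 0.11) and MCF10A (6.77 ± 0.064), each apart from the next. CLDN16 probe ILMN_1707670 lay between 11.22 and 11.44 in the KLE groups, with MCF10A (7.0 ± 0.048) and HCT116 (6.88 ± 0.059) below and not overlapping. In CLDN15 the KLE shMSH6 603 group was highest (8.58 ± 0.76) and HCT116 (7.94 ± 0.047) overlapped with the lowest KLE group, while MCF10A (7.30 ± 0.13) lay apart.

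The genes beside CLDN1 and CLDN16, looked up after their values had been seen, are given to show how this stretch of chromosome 3 was expressed. Sorted by their lowest RefSeq coordinate, P3H2, CLDN16, CLDN1, TMEM207 and IL1RAP follow each other. The second CLDN16 start lies beyond the CLDN1 start, so CLDN16 does not lie on a single side of CLDN1. P3H2, a collagen prolyl hydroxylase, stood at 6.98 ± 0.064 in HCT116, 10.45 ± 0.23 in MCF10A and 8.20 ± 0.14 in KLE shCTRL (SD, n = 3 each). IL1RAP, the accessory chain of the interleukin-1 receptor, stood at 7.0 ± 0.036 in HCT116, 8.38 ± 0.042 in MCF10A and 7.84 ± 0.25 in KLE shCTRL. Both were lower in HCT116 than in KLE shCTRL (-1.21 and -0.84, adjusted p = 1.9e-05 and 0.00016) and higher in MCF10A (2.25 and 0.54, adjusted p = 2.6e-07 and 0.0028), as CLDN1 was. TMEM207, next after CLDN1 in this order, stood between 7.05 and 7.10 in the 3 lines, while CLDN16 was lower in MCF10A. Beside CLDN3 and CLDN4, ABHD11 was lower in MCF10A than in KLE shCTRL (-0.47, adjusted p = 0.0013) and METTL27 higher in HCT116 (0.46, adjusted p = 0.002). Beside CLDN7 on chromosome 17, ELP5 differed from KLE shCTRL by -0.02 in HCT116 and by -0.47 in MCF10A (adjusted p = 0.93 and 0.0051). YBX2, further along, was lower than in KLE shCTRL in both (-1.11 and -1.21, adjusted p = 3.3e-05 and 1.9e-05), opposite to CLDN7.

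**Figure D3:**
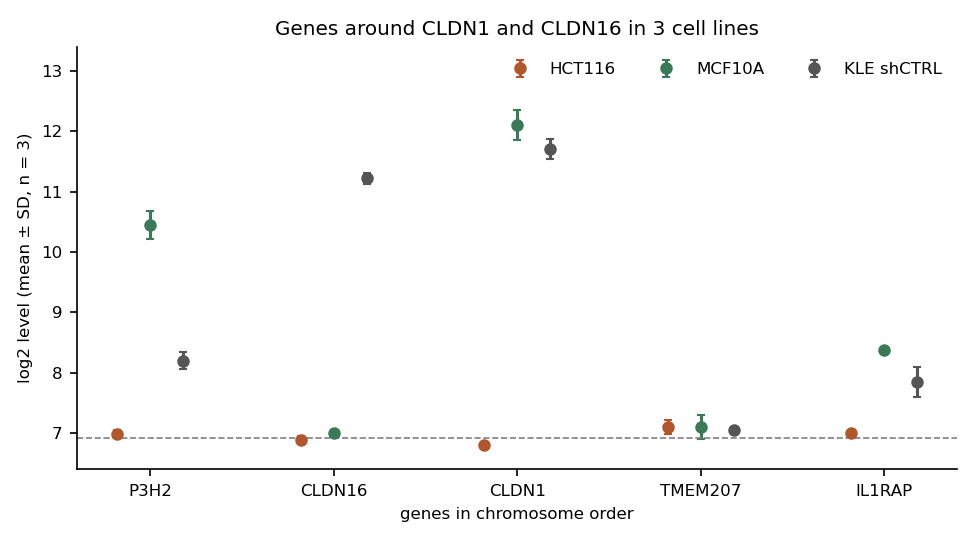
Log2 level (vertical axis, mean ± SD, n = 3 arrays) of 5 neighbouring genes of chromosome 3 in HCT116, MCF10A and KLE shCTRL, with the array median dashed. Genes are sorted by their lowest coordinate, not drawn to distance. In HCT116 all 5 lie near 7, while CLDN16 is high in KLE shCTRL alone and CLDN1, P3H2 and IL1RAP are high in MCF10A and KLE shCTRL.

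For the claudins whose group means spanned at least 1 on the log2 scale, the probes with the most similar profile over the 21 arrays were looked up. Since these arrays come from 3 lines, the likeness is a description of line differences. CLDN1 was most like SGPP2 (Pearson r = 0.99 over 21 arrays among 22778 probes) and both probes of VIM, the mesenchymal filament protein (0.98 each). CLDN7 was most like PPARG, MLPH and MIR100HG (0.99 each), and CLDN16 was most like FLG, ALPK2 and CDH6 (0.997, 0.997 and 0.996). CLDN3 followed EFEMP2, GPR162 and MYLIP (0.97, 0.96 and 0.95), and CLDN15 followed RASD2, ELOA and ZNF827 (0.94, 0.93 and 0.93).

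Other junction genes also differed between the lines. Of 21 tested partners of claudins in the tight junction, 5 were higher and 9 lower in HCT116 than in KLE shCTRL, 4 higher and 8 lower in MCF10A, and 5 higher and 5 lower in HCT116 than in MCF10A. Over all 14270 genes by their brightest probe, 53.8%, 52.1% and 40.7% were called in these comparisons. Cingulin (CGN), a scaffold on the inner face of the junction, was lower in HCT116 and MCF10A than in KLE shCTRL (-1.35 and -2.61, adjusted p = 1.4e-06 and 1.5e-08). The strand protein MARVELD3 was higher in both (1.12 and 0.60, adjusted p = 2e-07 and 1.3e-05). The polarity gene CRB3 was higher in HCT116 (1.23, adjusted p = 2.3e-05) and its partner PALS1 lower (-1.13, adjusted p = 1.1e-06). The adhesion molecule JAM3 was higher in MCF10A than in KLE shCTRL (0.87, adjusted p = 5.1e-06).

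Among 11 further claudin genes on the array, 7 were tested in the lines. CLDN20 was higher in HCT116 than in KLE shCTRL (0.68, adjusted p = 2.7e-05) and CLDN14 and CLDN9 were lower (-0.80 and -0.48, adjusted p = 4.2e-05 and 0.0056). In MCF10A the differences from KLE shCTRL were 0.25 for CLDN20, -0.96 for CLDN14 and -0.43 for CLDN9 (adjusted p = 0.012, 1.2e-05 and 0.0097). CLDN9 was above the array median on 0 of 3 arrays of HCT116 and of MCF10A and on 3 of 3 of KLE shCTRL, so it was kept for testing through KLE alone and had to be lower in both. Of 14 tested genes of adherens junctions and desmosomes, 7 were higher and 6 lower in HCT116, and 6 higher and 4 lower in MCF10A, than in KLE shCTRL. Over all genes 53.8% and 52.1% were called. CDH1, the epithelial cadherin, was lower in HCT116 (-1.38, adjusted p = 2e-05) and stood at -0.28 in MCF10A (adjusted p = 0.11).

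Epithelial regulators and proteases, 12 tested, counted 7 higher and 2 lower in HCT116 and 8 higher and 1 lower in MCF10A. For these and the mesenchymal genes below, the shares over all genes were again 53.8% and 52.1%. Those shares were not split by direction. ST14, the membrane protease matriptase, was higher in both (1.87 and 1.20, adjusted p = 1e-08 and 1.7e-07). Its inhibitor SPINT2 was lower in both (-2.22 and -1.91, adjusted p = 9.4e-09 and 2e-08). Of 7 tested mesenchymal genes, 5 were lower in HCT116, with CDH2 and VIM furthest (-5.38 and -5.12, adjusted p = 1.1e-10 and 3.5e-10). In MCF10A 2 were higher and 3 lower, with SNAI2 higher by 3.51 and CDH2 lower by 3.30 on the log2 scale (adjusted p = 1.8e-09 and 8.3e-10). SNAI2, a repressor that binds the E-box, stood at 6.79 in HCT116, 10.31 in MCF10A and 6.81 in KLE shCTRL. It was kept for testing through its MCF10A arrays alone and so had to differ. The same holds for TWIST2, the other gene higher in MCF10A. TWIST2 was above the array median on 3 of 3 MCF10A arrays, 1 of 3 HCT116 arrays and 0 of 3 KLE shCTRL arrays. ZEB1 stood between 6.70 and 6.76 in all 7 groups, below the array median. ZEB2 stood at 6.83 in HCT116, 6.92 in MCF10A and 7.12 in KLE shCTRL, and was above the median on 15 of 15 KLE arrays, 2 of 3 MCF10A arrays and 0 of 3 HCT116 arrays.

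In KLE cells the question was whether lowering MSH3 or MSH6 alters the claudins. No claudin probe passed the test with any of the 4 hairpins. Of 10 claudin probes of 8 genes tested, limma called 0 with hairpin 059, 0 with 062, 0 with 543 and 0 with 603, where 0.293%, 0.226%, 0.216% and 1.57% of all 29651 probes tested were called. At an unadjusted p below 0.05 there were 0 with 059, 1 with 062, 0 with 543 and 0 with 603, where 6.37%, 6.8%, 5.6% and 10.7% of all probes lay below it. A fit with the replicate letter as a block also called 0 with each hairpin. Over all probes that fit called 0.927%, 0.914%, 0.739% and 4.87%. It had 1, 1, 2 and 3 claudin probes at an unadjusted p below 0.05. The share of all probes below that level was not counted in the blocked fit, so these counts have no background to be set against. The 4 comparisons share the shCTRL arrays.

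The missed threshold does not show that the levels were equal. Without the letter block, the 95% intervals of the 10 probes reached from -0.81 to 0.88 with 059 and -0.79 to 0.99 with 062. They reached from -0.76 to 0.94 with 543 and from -1.22 to 1.24 with 603. Values within these intervals cannot be told apart in that fit, which leaves the spread between letters in its error. The widest intervals belonged to CLDN3 and CLDN15, whose arrays differed most by letter. For CLDN15 with hairpin 059 the interval was -0.81 to 0.77, and -0.35 to 0.31 when blocked by letter. That of CLDN4 with 059 did not narrow (-0.15 to 0.16, and -0.16 to 0.17 blocked). Median differences over the 10 probes were 0.078, 0.093, 0.025 and 0.028, against -0.00086, -0.00019, 0.0017 and 0.0051 over all probes. The direction of these small differences was not stable: of 70 in all KLE comparisons 19 took the other sign with median scaling and 27 without normalization.

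CLDN11 came nearest to a call. Its log2 levels were 8.32, 7.65 and 7.74 on arrays A, B and C with hairpin 062, against 7.67, 7.26 and 7.35 with shCTRL. Within each letter the difference was positive, 0.65, 0.39 and 0.39, although array B with 062 lay just below array A with shCTRL. The mean difference was 0.48 (SE 0.15, 95% interval 0.14 to 0.81, adjusted p = 0.43), and a fit blocked by letter gave an adjusted p of 0.065. With hairpin 059, which has the same target, CLDN11 had 7.79, 7.60 and 7.59 and a difference of 0.23 (95% interval -0.10 to 0.57, adjusted p = 0.95). With hairpins 543 and 603 the differences were 0.27 and 0.06 (adjusted p = 0.98 and 0.97).

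CLDN3 took opposite signs with the hairpins against MSH6. Its log2 levels were 8.72, 7.69 and 7.66 with hairpin 603, against 8.95, 8.31 and 8.22 with shCTRL. Within letters the differences were -0.23, -0.62 and -0.56, and their mean of -0.47 (SE 0.34, 95% interval -1.22 to 0.28) had an adjusted p of 0.75. A fit blocked by letter gave a 95% interval of -0.90 to -0.04 (adjusted p = 0.23). With hairpin 543 the levels were 9.11, 8.43 and 8.52, with a difference from shCTRL of 0.19 (95% interval -0.55 to 0.94, adjusted p = 1). Hairpin 603 set directly against 543 gave -0.66 (SE 0.34, 95% interval -1.41 to 0.09, adjusted p = 0.79), or 63.2% of the 543 level, with -0.39, -0.74 and -0.85 within letters. This difference between hairpins to the same target was the largest among the 70 KLE differences. Blocking by letter gave a 95% interval of -1.09 to -0.23 and an adjusted p of 0.14. With hairpins 059 and 062 CLDN3 stood 0.13 and 0.24 above shCTRL (adjusted p = 1 each).

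CLDN15 had its highest KLE value on 1 array with hairpin 603. Its levels were 9.45, 8.06 and 8.22 with hairpin 603, against 8.54, 7.95 and 7.89 with shCTRL. The differences within letters were 0.91, 0.11 and 0.33, and array A gave most of the mean of 0.45 (SE 0.36, 95% interval -0.34 to 1.24, adjusted p = 0.78). With the block the 95% interval was 0.12 to 0.78 and the adjusted p 0.13. With the other hairpins CLDN15 differed from shCTRL by -0.02 to 0.03.

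CLDN1 had 12.61, 11.84 and 11.75 with hairpin 543, against 11.90, 11.59 and 11.65 with shCTRL. All 3 letters gave a positive difference, 0.71, 0.26 and 0.10, with a mean of 0.36 (SE 0.26, 95% interval -0.20 to 0.92, adjusted p = 1). A fit blocked by letter gave CLDN1 a 95% interval of 0.06 to 0.66 (adjusted p = 0.35). With hairpins 059, 062 and 603 its differences were 0.25, -0.01 and 0.20. CLDN16 probe ILMN_1707670 differed by 0.21, 0.11, 0.08 and 0.22 with hairpins 059, 062, 543 and 603, and probe ILMN_2208435 by 0.13, 0.08, -0.13 and -0.00. The probes had the same sign with 059 and 062 and did not with 543. CLDN7, near the array median in KLE, differed by -0.14 to -0.02 with the 4 hairpins, CLDN4 by 0.00 to 0.15 and the CLDN10 probes by -0.06 to 0.12.

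**Figure D4:**
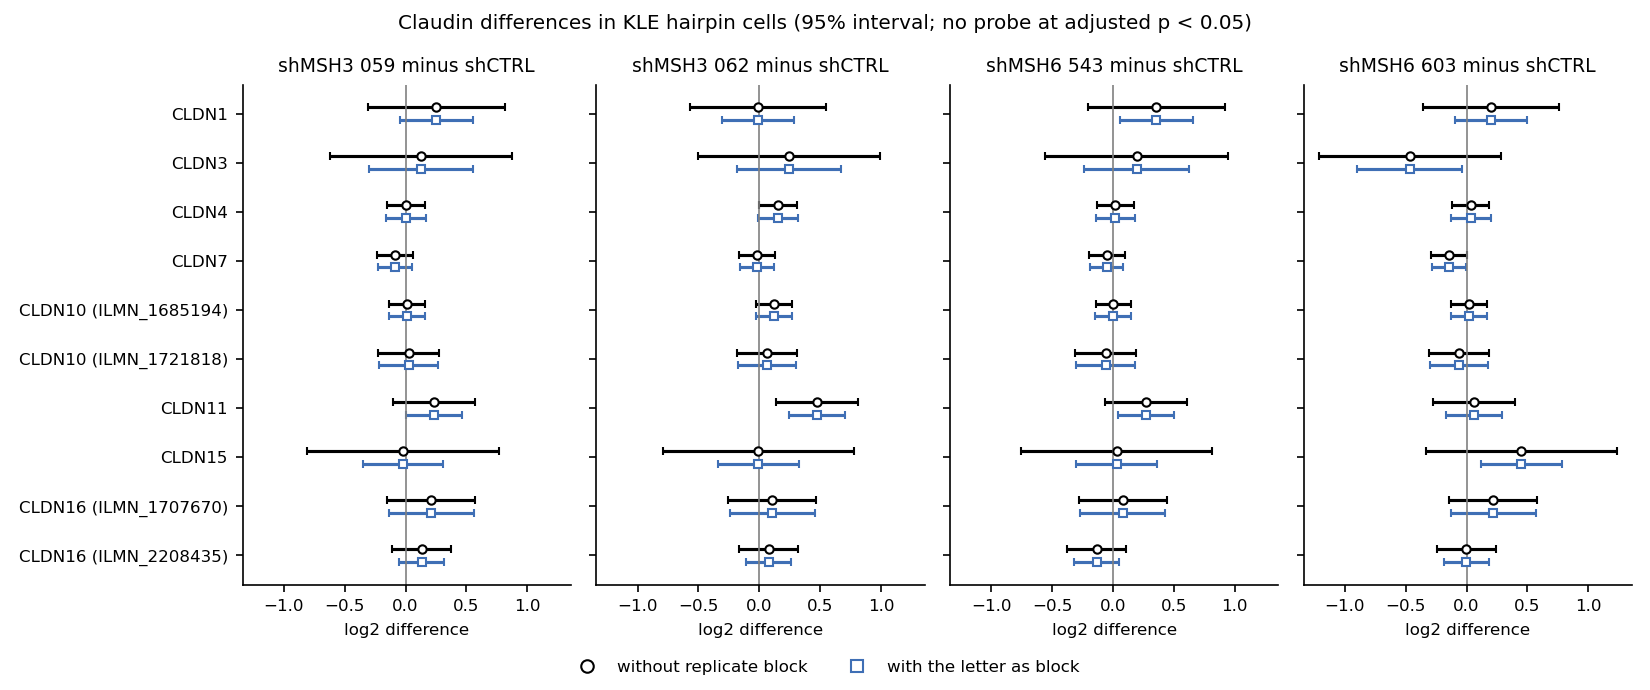
Log2 difference (horizontal axis) of the 10 tested claudin probes in KLE cells for each hairpin minus shCTRL, with 95% intervals from limma, without (circle) and with (square) the replicate letter as a block, 3 arrays per group. None of the 40 values passed an adjusted p of 0.05 in either fit, and the intervals of CLDN3 and CLDN15 narrow most with the block.

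The 6 arrays with hairpins against MSH3 were set against the 6 with hairpins against MSH6, a comparison that leaves out shCTRL. Limma called 0 of the 10 claudin probes, where 1.22% of all probes were called. At an unadjusted p below 0.05 there was 1 of 10, where 11.2% of all probes lay below it. That probe was ILMN_2208435 of CLDN16, with log2 levels of 8.60, 9.05, 9.09, 8.81, 8.81 and 8.96 with the MSH3 hairpins, against 8.66, 8.60, 8.69, 8.64, 8.83 and 8.87 with the MSH6 hairpins. The groups overlapped, and the mean difference was 0.17 (SE 0.079, 95% interval 0.00 to 0.34, adjusted p = 0.44). Without array A of hairpin 059 it was 0.25 and passed (adjusted p = 0.042). The other CLDN16 probe differed by 0.01 (adjusted p = 0.99). Blocked by letter, 4 of the 10 probes lay below an unadjusted p of 0.05, those of CLDN3, CLDN11 and CLDN15 and ILMN_2208435. The lowest adjusted p in that fit was 0.13. Between hairpins to the same target limma called 0 claudin probes for 059 against 062 (0.0742% of all probes) and 0 for 603 against 543 (0.705%). At an unadjusted p below 0.05 there were 0 in each, where 6.09% and 7.34% of all probes lay below it. Blocked by letter there were 1 for 059 against 062 (CLDN11) and 2 for 603 against 543 (CLDN3 and CLDN15). The share of all probes below an unadjusted 0.05 was not counted for the blocked fits.

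Between replicate letters several claudin probes differed, in a comparison of 5 arrays against 10 where each hairpin had 3 against 3. After the arrays had been seen to fall apart by letter, letter A was set against B and C over the 5 KLE groups, and 4 of the 10 claudin probes were higher and 1 lower in A (limma, with 32.1% of all probes called, 17.2% higher and 14.9% lower). CLDN15, CLDN3, CLDN1 and CLDN11 were the higher ones. The labels do not say what a letter stands for, and what sets A apart was not tested.

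CLDN15 on the A arrays had a lowest, median and highest log2 level of 8.41, 8.54 and 9.45, against 7.73, 7.96 and 8.22 on the B and C arrays. The letters did not overlap, and A lay above B and C in 5 of 5 groups (difference 0.77, SE 0.10, adjusted p = 0.00011). CLDN1 on the A arrays had 11.90, 12.09 and 12.61, against 11.45, 11.70 and 11.91 on B and C, again with A above both in 5 of 5 groups (0.51, SE 0.091, adjusted p = 0.00098). CLDN3 on the A arrays had 8.68, 8.95 and 9.30, against 7.66, 8.37 and 8.78 on B and C (0.66, SE 0.13, adjusted p = 0.002). With hairpin 062 alone CLDN3 ran the other way, at 8.68 on A against 8.78 and 8.75 on B and C. CLDN11 was higher on A by 0.27 (SE 0.071, adjusted p = 0.011), in 4 of 5 groups.

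CLDN16 probe ILMN_2208435 was lower on A by 0.17 on the log2 scale (SE 0.057, adjusted p = 0.038), but higher with median scaling (0.36) and without normalization (0.48), so that its direction depends on the scaling. The other CLDN16 probe differed by 0.14 (adjusted p = 0.38). For comparison, the means of the 5 KLE groups spanned 0.37 for CLDN1, 0.71 for CLDN3, 0.48 for CLDN11 and 0.47 for CLDN15.

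**Figure D5:**
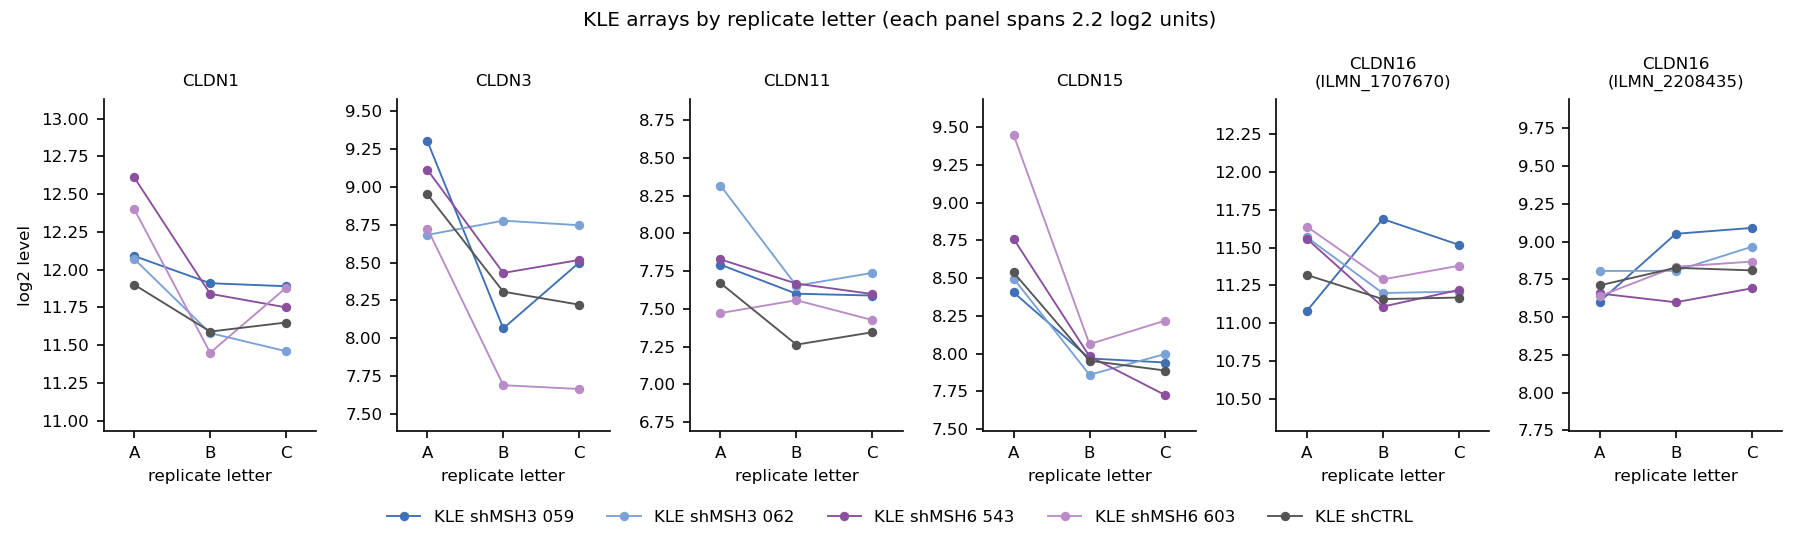
Log2 level (vertical axis, each panel spanning 2.2 units) of 6 claudin probes on the 15 KLE arrays by replicate letter (horizontal axis), with lines joining the arrays of a group. CLDN15 and CLDN1 fall between A and B in all 5 groups, and CLDN3 in all but hairpin 062.

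Other epithelial genes moved with the letter in both directions, where 38.9% of 14872 genes were called. Of 21 tight junction partners 5 were higher and 5 lower on A, with LSR, the tricellular junction receptor, lower by 1.18 on the log2 scale (adjusted p = 2.8e-07) and PRKCZ, a polarity kinase, higher by 0.45 (adjusted p = 0.0019). Of 13 adherens junction and desmosome genes 4 were higher and 4 lower, with JUP lower by 0.95 and CTNNB1 higher by 0.60 (adjusted p = 4.4e-06 and 5.9e-05). Of 11 epithelial regulators and proteases 4 were higher, among them PRSS8 by 0.74 (adjusted p = 9.8e-06), and 1 was lower. The keratin KRT8 was lower by 0.88 (adjusted p = 3.8e-06).

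With the hairpins, few genes of these lists were called, where 0.383%, 0.303%, 0.316% and 2.02% of genes were called with 059, 062, 543 and 603. CDH2, the neural cadherin, rose with hairpin 059 (0.47, SE 0.081, adjusted p = 0.034) and with hairpin 603 (0.45, SE 0.081, adjusted p = 0.015). With hairpin 062 CDH2 differed by 0.17 (adjusted p = 0.77), and with 543 it stood at 12.28 against 12.16 with shCTRL, not called. JAM3 rose with hairpin 543 (0.43, SE 0.072, adjusted p = 0.039). With 603 JAM3 stood at 7.72 against 7.50 with shCTRL, not called. None of these calls was thus shared by the other hairpin to the same target. Of the 6 further claudin genes tested in KLE, CLDN12 was lower with hairpin 603, at 8.46 ± 0.010, than with hairpin 543, at 8.88 ± 0.079 (SD, n = 3 each). That difference was -0.42 (SE 0.079, limma adjusted p = 0.032), where 1.04% of genes were called. Against shCTRL (8.78 ± 0.15) CLDN12 with hairpin 603 differed by -0.32 (adjusted p = 0.077). This passed when blocked by letter (adjusted p = 0.013), where 4.87% of all probes were called. In MSH3 against MSH6 hairpins CLDN12 and CLDN14 differed by 0.17 and 0.26 (adjusted p = 0.21 each, where 1.71% of genes were called). When blocked by letter both passed (adjusted p = 0.041 each), where 5.97% of all probes were called.

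Blocking by letter added calls for further genes of these lists, and it also raised the share called over all probes. In the blocked fits 0.914% of all probes were called with hairpin 062 and 4.87% with 603, each against shCTRL. The share was 0.799% for 059 against 062, 2.19% for 603 against 543 and 5.97% for MSH3 against MSH6 hairpins. The desmosome gene DSP was lower with hairpin 062 than with shCTRL (-0.40, adjusted p = 0.079, or 0.048 blocked). PAX8 was higher with hairpin 603 than with shCTRL (0.36, adjusted p = 0.52, or 0.035 blocked). With hairpin 059 the desmosomal cadherin DSG2 was lower than with 062 (-0.54, adjusted p = 0.12, or 0.025 blocked). With hairpin 603 the junction scaffold MPDZ was lower than with 543 (-0.34, adjusted p = 0.078, or 0.042 blocked), and CDH2 and the integrin ITGB4 were higher (0.32 and 0.64, adjusted p = 0.13 and 1, or 0.036 and 0.047 blocked). DCN was higher with MSH3 than with MSH6 hairpins (0.77, adjusted p = 0.059, or 0.023 blocked).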

How the data were processed

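Total RNA of 21 cell samples had been hybridised to Illumina BeadChips, 1 colour and 1 array each, and exported with GenomeStudio, per the submitters' processing notes. The deposited values are probe intensities on a linear scale from 66.27 to 24680, with unequal array medians and no sign of background subtraction, so quantile normalization over the 21 arrays was applied here after log2(intensity + 16). Detection p-values were not used here. Of 47323 probes, GEO's platform annotation gave 30113 a single gene, 8 several and 17202 none. No 2 arrays held identical values.

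Probes above the array median on at least 3 arrays of a fit were tested with limma 3.58.1 in R 4.3.3 (lmFit, eBayes, two-sided, Benjamini-Hochberg over all probes kept, threshold 0.05). The 3 lines were fitted on 9 arrays (27745 probes) and the KLE groups on 15 (29651 probes), with 95% intervals from the same fits. Other gene lists used each gene's brightest probe, and in each the genes with the smallest p were named, at most 4 per comparison. Genes of like pattern were the 3 probes with the highest Pearson r. The scripts were tested on simulated data. The claudins and gene lists were chosen with earlier results of these data known.

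KLE arrays of the same letter deviated together from their group means (median r of 0.67 for A, 0.50 for B and 0.51 for C over 10 pairs each, lowest 0.36). Arrays B and C also deviated together (median r of 0.49 over 20 pairs), while A ran against B and C (-0.57 and -0.58). These values thus set A apart but do not separate B from C. The letters were taken to pair the arrays, and a fit with the letter as a block is given where it changes a call. Letter A was set against B and C after this was seen. Alternatives were median scaling, no normalization, pseudocounts of 1 and 64, normexp with an offset of 50, no filter, a filter at the 75th percentile, 1 probe per gene, only the groups compared, all 21 arrays, the replicate block and leaving out each array. Promoter windows came from RefSeq tables of GRCh38.p14. Further lines of the study were not analysed here.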

Additional observations from a re-analysis of the deposited data

How the results depend on the processing

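The counts of called claudin probes ranged over all settings from 6 to 8 for HCT116 against KLE shCTRL and from 2 to 4 for HCT116 against MCF10A. For MCF10A against KLE shCTRL the count of 8 fell to 5 without normalization (1 higher, 4 lower), and leaving out single arrays gave 6 to 8. For MSH3 against MSH6 hairpins leaving out single arrays gave 0 to 1, the 1 being CLDN16 probe ILMN_2208435 without array A of hairpin 059. The other hairpin comparisons gave 0 in every setting run. Over 23 single-probe results and 410 settings, 384 kept direction and side of the threshold, 24 kept direction but missed the threshold and 2 reversed. The reversed ones were CLDN16 probe ILMN_2208435 on letter A, at 0.36 with median scaling (adjusted p = 0.018) and 0.48 without normalization (adjusted p = 0.013), where the median of all probes moved to 0.067 and 0.19. Its call was also lost in 9 fits that left out 1 array (adjusted p of 0.054 to 0.12). The cause was not tested. The count on letter A was 4 to 7 over the settings. Without normalization the median of all probes also moved to -0.23 with hairpin 059, -0.17 with 603 and -0.16 for 059 against 062.

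With the letter as a replicate block the count was 0 in each of the 7 hairpin comparisons, and it changed no claudin call there. Between the lines the replicates share only a number (median r of 0.033, -0.19 and -0.21 for same-numbered arrays). The block there gave 7, 8 and 4 called probes, the added one being CLDN3 in HCT116 against MCF10A (adjusted p = 0.045). Dim probes, among them CLDN4, CLDN10 and CLDN11 in HCT116 and MCF10A, lie near background, which limits what their differences can show.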
